A study of Homo sapiens with 18 samples.

Results

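Messenger RNAs of the machinery that moves proteins into the endoplasmic reticulum (ER), adds glycans and glycosylphosphatidylinositol (GPI) anchors to them, folds them and removes those that fail to fold were followed in RNA immunoprecipitates (RIPs) and whole-cell input. The genes were chosen by symbol: the SEC61, SEC62, SEC63, SEC11, SPCS, SSR, STT3, RPN, OSTC, PDIA, ERP, EDEM, DERL, SEL1L, ALG, PIG and PGAP families together with DDOST, HSPA5, HSP90B1, CANX, CALR, SYVN1 and XBP1. This gave 70 of the 14232 genes that had a transcript cluster of their own on the array, and the brightest cluster stood for a gene where there was more than 1. Of the 70, 68 are protein-coding and 2 are pseudogenes (SSR4P1 and ALG1L1P). PIGR, which fits the symbol pattern, encodes the polymeric immunoglobulin receptor and is no GPI gene. A further 13 genes of these families, among them HSP90B1, PDIA3, RPN2 and SPCS1, lie only on transcript clusters shared with other genes and have no value here.

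Proteins bound for secretion or for membranes enter the ER through the SEC61 channel, lose their signal peptide to signal peptidase and receive N-linked glycans from oligosaccharyltransferase, which takes a glycan built on dolichol by the ALG enzymes. HSPA5 (BiP), the lectins calnexin (CANX) and calreticulin (CALR) and the disulfide isomerases then fold them, and ER-associated degradation (ERAD) exports what fails to fold. When unfolded proteins build up, the unfolded protein response, in which XBP1 is a transcription factor, raises the mRNAs of chaperones and ERAD factors. GPI anchors are built in the ER by PIG enzymes and remodelled by PGAP proteins. mRNAs of this machinery are largely translated on the ER surface, whereas stress granules are cytoplasmic assemblies of untranslated mRNA and protein.

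The cells were U251-MG, an established human astrocytoma line. Treatment lasted 30 min, with DMSO as the vehicle control or with 500 µM arsenite, an oxidative stressor under which stress granules form. The 6 groups were input, RIP with an antibody to TIAR (called Tial in some labels, after the gene TIAL1) and RIP with an antibody to G3BP1, each from arsenite-treated and from DMSO-treated cells. TIAR and G3BP1 are RNA-binding proteins of stress granules, and the study asked which RNAs they hold after stress. All groups are the same line with no genetic change, and no RIP with a control antibody is among the samples used here.

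Each group held 3 arrays labelled as biological replicates. Nothing says whether these came from separate cultures, so p-values measure the spread between the arrays. Values are log2 signals, and all differences below are on that scale, with the standard error (SE) of the fitted difference. A gene was called higher or lower at a limma adjusted p under 0.05, with the adjustment over all 22011 transcript clusters. Signals show the makeup of each RNA sample: they do not show how much RNA an antibody recovered, and in input fewer copies per cell and fewer cells that hold an mRNA cannot be told apart. Astrocytoma markers VIM and CD44 had median input signals of 13.08 and 11.89, GFAP 8.43 and S100B 5.01, while EPCAM, an epithelial marker, had 3.46 and PTPRC, a leukocyte marker, 3.65. Other myeloid markers were higher, with CD68 at 9.46, above GFAP, CD14 at 7.86 and AIF1 at 6.11, and CDH1, also epithelial, had 5.91. NEFL, listed as a neuron marker, had 13.33, SYT1 8.77 and SNAP25 6.76. The markers therefore did not separate cleanly by cell type.

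A pair of arrays stood apart from their groups. Replicate 1 of arsenite-treated input and replicate 3 of the G3BP1 RIP without stress each had a mean correlation of 0.98 with their group, and their medians over all transcript clusters were 7.73 and 7.8. The first was the lowest of its group for 59 of the 70 ER genes and for 56.8% of all genes, and the second for 60 of the 70 and 61.3%. The median signal of the ER genes was 9.31 on replicate 3 of the unstressed G3BP1 RIP, against 9.85 and 9.9 on replicates 1 and 2. Results are therefore given with all arrays and, for many genes and counts, also without this pair. Where only 1 value is given it is with all arrays, and a difference that involves either of these groups can change without the pair. ERP27 was the only ER gene of the 70 whose mean lay in the lowest 25% of transcript clusters.

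Arsenite raised many of these mRNAs in both RIPs and fewer in input. In input, 9 of the 70 rose and 4 fell, against 2.08% higher and 13.5% lower among all genes, and the median change was 0.09 beside -0.06 for all genes. The TIAR RIP had 22 that rose and 0 that fell, where 6.15% of all genes rose and 7.15% fell. The median change there was 0.28, beside -0.02 for all genes. The G3BP1 RIP had 25 and 0, where 11.9% of all genes rose and 4.12% fell, with a median of 0.36 beside 0.01. As shares of the 70 genes, the risers made 12.9% in input, 31.4% in the TIAR RIP and 35.7% in the G3BP1 RIP. Changes above 0 numbered 56 of 70 in the TIAR RIP and 62 in the G3BP1 RIP, beside 6457 and 7304 of the 14232 genes. At an unadjusted limma p under 0.05, 3 of the 70 were lower in the TIAR RIP and 1 in the G3BP1 RIP. Genes were not counted at that threshold over the whole array. The ER genes were brighter than most, with a median of 9.99 beside 7.94 and 55 of the 70 above the median transcript cluster. Without the lowest 25% of clusters, 2.48% of all genes rose and 18.2% fell in input. The shares were then 8.34% and 9.75% in the TIAR RIP and 15.9% and 5.76% in the G3BP1 RIP.

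The genes called as risers were partly different in the different RNA samples. A call in only 1 of them does not show that the changes differed, and the changes are compared directly further below. The overlap was not counted over all genes. Of the 9 that rose in input, 8 (88.9%) rose in the TIAR RIP, where they made 36.4% of the risers, and 3 (33.3%) rose in the G3BP1 RIP, where they made 12%. The RIPs shared 9 risers, 40.9% of those in the TIAR RIP and 36% of those in the G3BP1 RIP. DDOST, PIGO and SYVN1 rose in all 3 RNA samples. Without the pair of arrays that stood apart, input had 19 risers and 6 lower genes, beside 5.94% and 16.4% of all genes, and the TIAR RIP 32 and 4, beside 12.1% and 14%. The shares of all genes were larger there too. The G3BP1 RIP had 24 and 2, beside 12.5% and 15.7%, and its median change was then 0.18. Without replicate 1 of unstressed input, 8 genes in all changed in input, beside 1.17% higher and 8.69% lower among all genes. Rescaling raised the count in input to 18 higher and 5 lower with array medians set equal, and to 19 and 4 with quantile normalization, when 5.07% and 6.4% of all genes were higher and 13.4% and 12.1% lower.

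**Figure D1:**
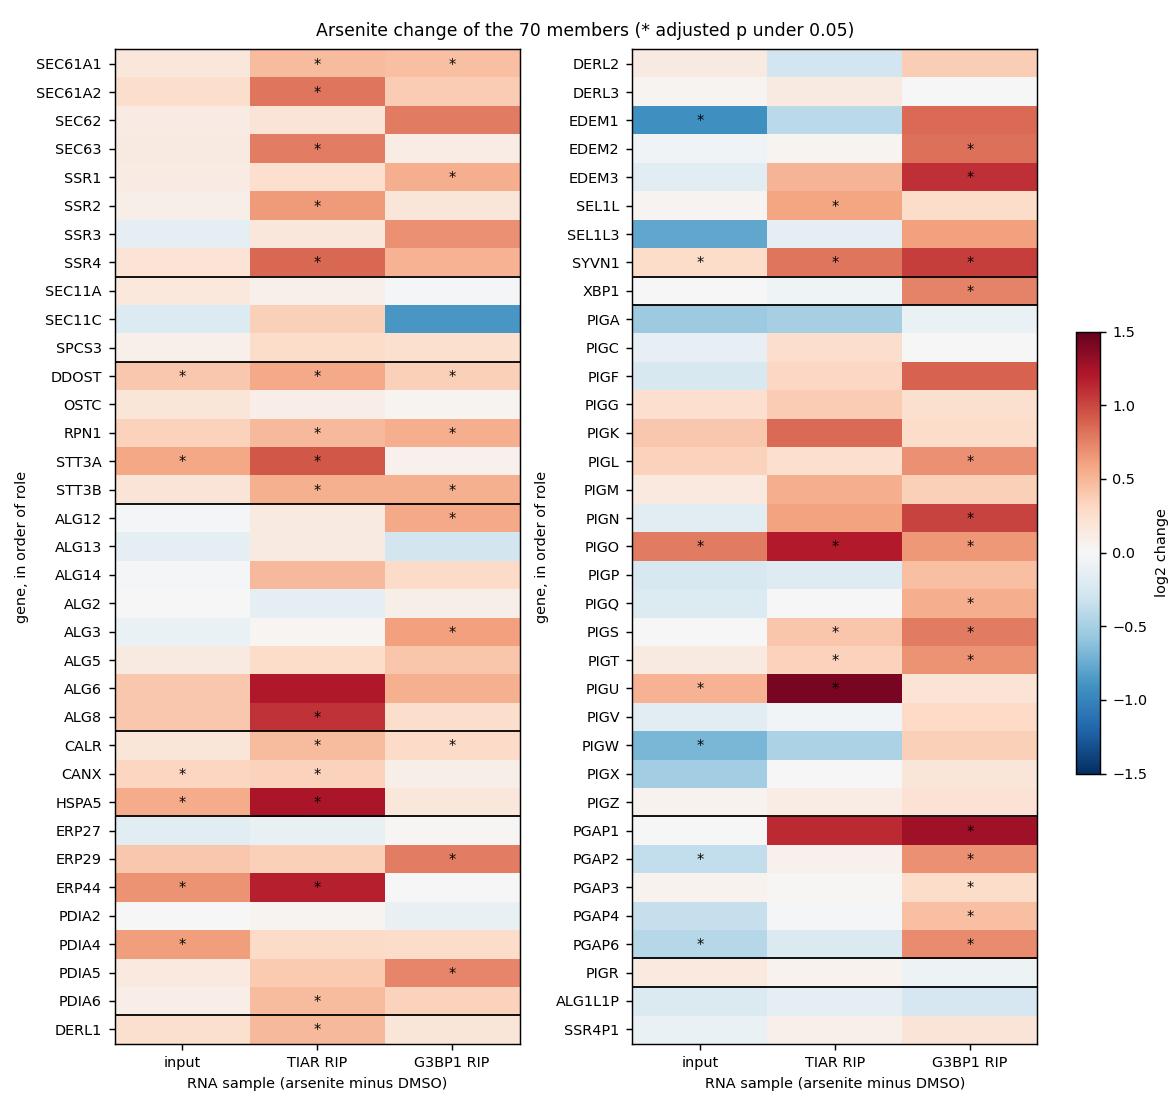
Log2 difference between arsenite and DMSO for each of the 70 genes (rows, in order of role, black lines between roles) in input, the TIAR RIP and the G3BP1 RIP (columns). Asterisks mark an adjusted p under 0.05: 13 in input, 22 in the TIAR RIP and 25 in the G3BP1 RIP, with every asterisk in both RIP columns on a rise.

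The RIPs also differed from input and from each other without stress. Without stress, 16 of the 70 were higher in the TIAR RIP than in input and 21 lower, beside 20.2% and 23.4% of all genes. With arsenite the counts were 31 and 16, beside 24.4% and 22.9%. For the G3BP1 RIP without stress, 10 were higher and 24 lower, beside 23.7% and 15.6% of all genes, and with arsenite 20 and 14, beside 35.3% and 9.9%. The unstressed counts without the pair of arrays were 19 and 23, beside 32.5% and 18.3%, and without replicate 3 of the unstressed G3BP1 RIP alone 16 and 22. Between the RIPs, 26 were higher in the TIAR RIP and 18 higher in the G3BP1 RIP without stress, where 19.2% and 30.2% of all genes were. With arsenite 27 and 21 were, beside 14.4% and 32.4%. The comparisons with input share the input arrays.

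These splits moved with the scale. With array medians set equal, the TIAR RIP without stress had 30 higher and 17 lower than input, beside 29.6% and 18.7% of all genes. Quantile normalization gave 27 and 18, beside 28.4% and 19.4%. The median of all genes moved there from -0.03 to 0.14 and 0.1. The G3BP1 RIP with arsenite had 18 higher and 21 lower after median centring, beside 30.1% and 20.6%, and 17 and 19 after quantile normalization, beside 31.5% and 16.9%, with the median of all genes at -0.06 and 0.07 in place of 0.11.

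Between the RIPs, median centring gave 34 and 16 without stress, beside 27% and 24.8%, and 37 and 18 with arsenite, beside 26.5% and 26%. Quantile normalization gave 37 and 14, beside 24.2% and 27.3%, and 35 and 18, beside 21.6% and 27.2%. The median of all genes in those comparisons moved from -0.07 to 0.11 and from -0.08 to 0.14 with median centring.

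**Figure D2:**
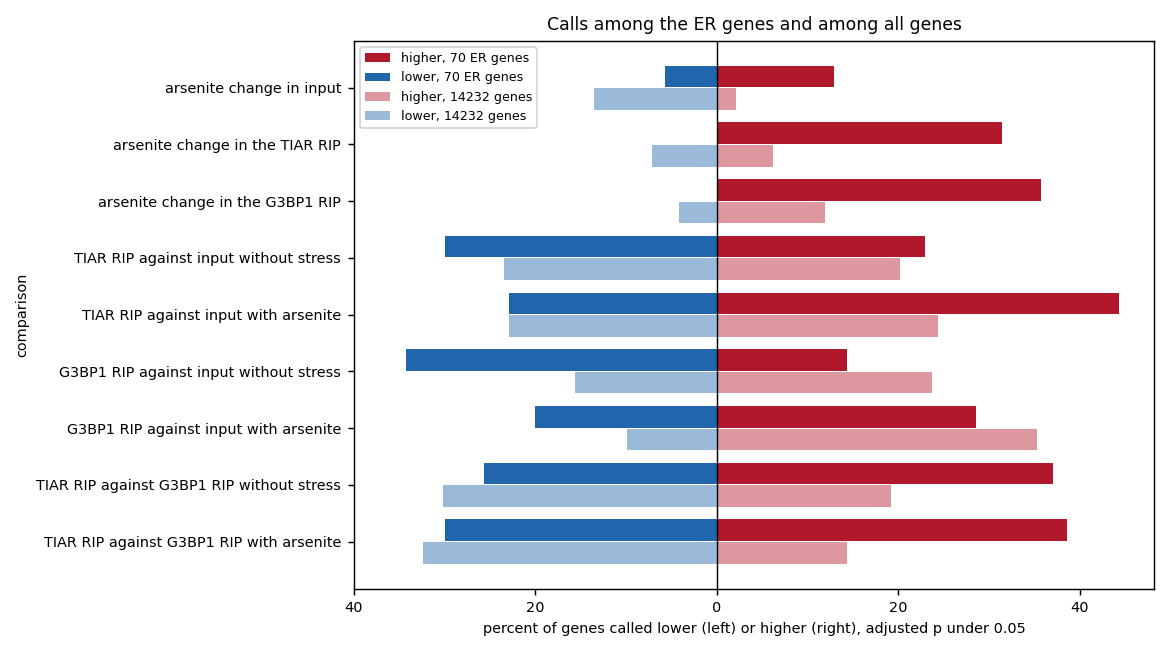
Percent of genes called higher (right, red) or lower (left, blue) in 9 comparisons, for the 70 ER genes (dark bars) and all 14232 genes (pale bars). Among the ER genes the bar for risers with arsenite reaches 31.4% in the TIAR RIP and 35.7% in the G3BP1 RIP, beside 6.15% and 11.9% of all genes.

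Translocation genes were split by subunit between the RIPs. The group holds SEC61A1 and SEC61A2, pore subunits of the channel, SEC62 and SEC63, its partners in post-translational import, and SSR1 to SSR4, the subunits of the translocon-associated protein complex (TRAP). SSR4 read 11.52, 11.4 and 11.41 in unstressed input, 8.79, 8.85 and 8.65 in the unstressed TIAR RIP and 10.12, 10.27 and 9.42 in the unstressed G3BP1 RIP. No array of either RIP reached the input arrays. SSR4 was 2.68 ± 0.20 lower in the TIAR RIP than in input (log2 change -2.68, adjusted p 3.8e-08) and lower in the G3BP1 RIP (log2 change -1.5 ± 0.20, adjusted p 1.7e-05, and -1.25 without the pair of arrays). With arsenite it was lower in both RIPs again, by log2 changes of -2.01 and -1.18.

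SSR3, SSR1 and SEC62 stood the other way between the RIPs. SSR3 read 12.06, 11.91 and 11.5 in the unstressed TIAR RIP and 10.12, 10.59 and 9.12 in the unstressed G3BP1 RIP, and the arrays did not overlap. The difference was 1.88 ± 0.29 (adjusted p 5.7e-05), or 1.47 without the pair of arrays, and 1.36 ± 0.29 with arsenite (adjusted p 0.0012). SSR1 was 1.38 ± 0.15 and 1.08 ± 0.15 higher in the TIAR RIP than in the G3BP1 RIP without and with arsenite. SSR2 was lower there, by log2 differences of -1.03 ± 0.10 and -0.58 ± 0.10, as was SSR4, by -1.17 ± 0.20 and -0.83 ± 0.20. So the mRNAs of a single 4-subunit complex stood on opposite sides of the comparison between the RIPs.

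SEC62 read 10.46, 10.14 and 9.89 in the unstressed TIAR RIP and 8.42, 8.34 and 7.3 in the unstressed G3BP1 RIP, a difference of 2.15 ± 0.27 (adjusted p 6.5e-06) with no overlap. Without the pair of arrays the difference was 1.79, and with arsenite it was 1.56 ± 0.27 (adjusted p 0.00018). SEC62 has more than 1 transcript cluster, and the brightest is given. Against input, 4 of the 8 translocation genes were lower in the G3BP1 RIP both without stress and with arsenite, and 0 were higher, where 15.6% and 9.9% of all genes were lower. With arsenite the 4 included SEC62 (-0.7) and SEC63 (-0.4), whose calls were lost in 12 and 13 of the 18 fits that left out 1 array each, while 6 of the 8 were lower without the pair of arrays, beside 13.7%. The TIAR RIP had 3 above and 2 below input without stress, beside 20.2% and 23.4%, and 4 and 2 with arsenite, beside 24.4% and 22.9%.

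With arsenite, 0 of the 8 translocation genes changed in input, 5 rose in the TIAR RIP and 2 rose in the G3BP1 RIP, where 6.15% and 11.9% of all genes rose. SSR4 in the TIAR RIP went from the values above to 9.59, 10.04 and 9.25, a rise of 0.86 ± 0.20 (adjusted p 0.00847), yet it stayed below every input array. SEC63 rose by 0.77 ± 0.15 (adjusted p 0.00301) and SEC61A2 by 0.80 ± 0.19 (adjusted p 0.0126). SEC61A2 lost its call without replicate 3 of the TIAR RIP with arsenite (0.71, adjusted p 0.0604) or without stress (0.7, adjusted p 0.0641). SSR2 and SEC61A1, the remaining risers, rose by 0.64 and 0.47. Risers in the G3BP1 RIP were SEC61A1, by 0.45, and SSR1, by 0.55; SSR1 was no longer called without replicate 1 or 2 of the stressed or replicate 3 of the unstressed G3BP1 RIP, when its changes lay from 0.42 upward and the largest adjusted p was 0.0915.

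Signal peptidase had a value for 3 subunits: SEC11A and SEC11C, its catalytic subunits, and SPCS3. SEC11C read 9.41, 9.29 and 9.48 in unstressed input, 7.01, 6.6 and 6.54 in the unstressed TIAR RIP and 10.25, 10.26 and 8.94 in the unstressed G3BP1 RIP. It was thus low in the TIAR RIP, below all input arrays by a log2 change of -2.67 ± 0.34 (adjusted p 1.3e-05), and its G3BP1 arrays spread across the input level. The difference between the RIPs, -3.1 ± 0.34 without stress (adjusted p 1.7e-06) and -1.87 ± 0.34 with arsenite (adjusted p 0.00032), is the lower end of the range among the 70 genes without stress. The other catalytic subunit, SEC11A, differed by 0.3 between the RIPs with arsenite, a call lost without replicate 3 of the G3BP1 or replicate 2 of the TIAR RIP (0.23 to 0.37 over the fits, largest adjusted p 0.0767). SPCS3 was higher in the TIAR RIP than in the G3BP1 RIP by 1.39 without stress and 1.41 with arsenite. Its unstressed G3BP1 arrays read 9.72, 9.9 and 8.74, the lowest being the array that stood apart. None of the 3 was called with arsenite in any RNA sample, where the changes ran from -0.87 (SEC11C in the G3BP1 RIP, adjusted p 0.119) to 0.36. Without the pair of arrays SEC11C fell in the G3BP1 RIP (-1.31, adjusted p 0.00337).

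**Figure D3:**
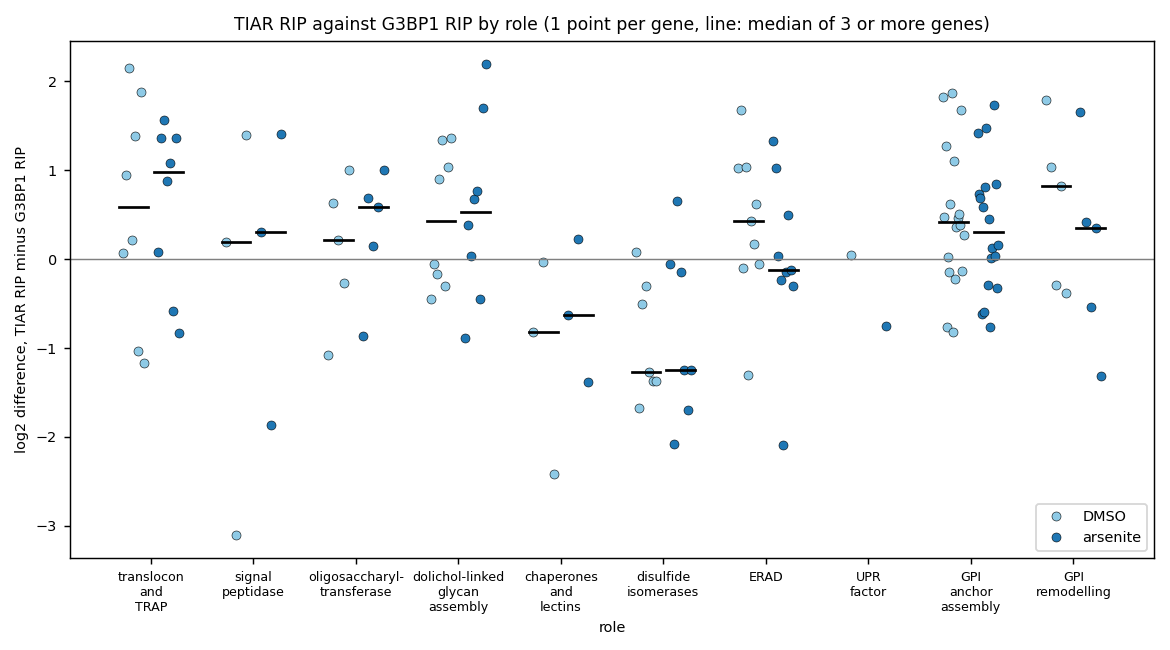
Log2 difference between the TIAR RIP and the G3BP1 RIP for the ER genes by role, without stress (pale points) and with arsenite (dark points); each point is 1 gene and the line the median of a role with 3 or more genes. Disulfide isomerases lie mostly below 0, with medians of -1.27 and -1.25, and the lowest point is SEC11C at -3.1.

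Oligosaccharyltransferase genes rose with arsenite in the TIAR RIP, 4 of 5, where 6.15% of all genes rose. In the G3BP1 RIP 3 rose, beside 11.9%, and in input 2, beside 2.08%, or 4 without the pair of arrays, beside 5.94%. In the TIAR RIP STT3A and STT3B (alternative catalytic subunits), DDOST and RPN1 (shared subunits) rose, and OSTC did not pass (0.1 ± 0.15, adjusted p 0.856). STT3A read 11.86, 11.91 and 11.88 in unstressed and 12.38, 12.48 and 12.53 in stressed input. Its TIAR RIP values were 12.27, 12.12 and 12.14 without stress and 13.12, 13.05 and 13.16 with arsenite, and in the G3BP1 RIP 12.53, 12.55 and 12.27, then 12.59, 12.51 and 12.48. The arrays separated by treatment in input and in the TIAR RIP and overlapped in the G3BP1 RIP.

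STT3A rose by 0.58 ± 0.08 in input (1.5-fold, adjusted p 0.00034) and by 0.93 ± 0.08 in the TIAR RIP (1.91-fold, adjusted p 6.5e-06), and its change in the G3BP1 RIP was 0.07 ± 0.08 (adjusted p 0.673). DDOST rose in all 3 RNA samples, by 0.40, 0.57 and 0.36. Its call in input was lost without replicate 1 of unstressed input (adjusted p 0.0518), and that in the G3BP1 RIP without replicate 1 or 2 of the stressed or replicate 3 of the unstressed G3BP1 RIP (down to 0.23, largest adjusted p 0.0892). STT3B rose by 0.53 in each RIP. RPN1 rose by 0.49 and 0.55, but 4 of the 18 fits that left out 1 array lost the call in the TIAR RIP (largest adjusted p 0.117) and 2 that in the G3BP1 RIP (0.0559). STT3B was also 0.93 and 1.27 higher in the TIAR RIP than in input without and with arsenite. DDOST was lower there, by log2 differences of -0.6 and -0.44.

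Of 8 genes that build the dolichol-linked glycan, arsenite raised 0 in input, 1 in the TIAR RIP and 2 in the G3BP1 RIP, where 2.08%, 6.15% and 11.9% of all genes rose. With the pair of arrays left out, 2, 3 and 2 rose, beside 5.94%, 12.1% and 12.5%, and 1 fell in the G3BP1 RIP, where the median change of the 8 went from 0.36 to -0.08. ALG8, the glucosyltransferase that adds the second glucose, read 11.98, 11.87 and 11.85 in the unstressed and 13.02, 12.86 and 13.08 in the stressed TIAR RIP. Its arrays did not overlap, and it rose by 1.08 ± 0.19 (2.12-fold, adjusted p 0.00153). In the stressed G3BP1 RIP it read 10.89, 10.73 and 10.76, so the RIPs differed by 2.19 ± 0.19 with arsenite (4.56-fold, adjusted p 1.9e-07), the upper end of the range of the 70 genes in that comparison. ALG3 and ALG12, mannosyltransferases, rose in the G3BP1 RIP by 0.61 ± 0.07 (adjusted p 5.1e-05) and 0.57 ± 0.10 (adjusted p 0.00138). ALG6, which adds the first glucose, stood 1.87 ± 0.42 above stressed input in the stressed TIAR RIP (adjusted p 0.00196), and 1.51 without the pair of arrays.

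In the unstressed G3BP1 RIP 5 of the 8 glycan assembly genes were lower than in input and 0 higher, beside 15.6% and 23.7% of all genes. Leaving the pair of arrays out gave 5 lower and 2 higher, beside 18.3% and 32.5%. ALG13, a subunit of the transferase that adds the second N-acetylglucosamine, was lower than input in both RIPs by its brightest cluster, by log2 changes of -1.25 (TIAR) and -1.21 (G3BP1) without stress and -0.96 and -1.34 with arsenite. Its transcript clusters disagreed: with their mean, ALG13 stood 0.42 above stressed input in the stressed TIAR RIP (adjusted p 0.0892) and differed by -0.05 in the stressed G3BP1 RIP (adjusted p 0.863), so neither call with arsenite held.

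Chaperones and lectins are the group that the unfolded protein response is best known to raise, through the ER stress element (ERSE), a promoter motif made of CCAAT and CCACG with 9 free bases between them. Among the 61 ER genes with a RefSeq promoter window, the 250 bases before the start held this motif on either strand in 6: HSPA5, CANX, CALR, PDIA6, XBP1 and ALG12. It was held by 26 of all 35116 windows (0.074%), and by 25 of 27305 genes (0.0916%). The related ERSE-II, ATTGG and CCACG with 1 free base between, was in 0 of the 61 and in 0.0513% of windows, and the UPR element TGACGTGG in 4 (SSR3, SEC62, PIGP and SSR4) and in 0.612% of windows. The UPR element, read on the other strand, starts with the same CCACG that ends the ERSE. The 6 ERSE stretches are shown, from RefSeq on GRCh38.p14, because they are the textbook promoter element of ER stress induction and the genes that hold it moved differently here. They are written on the strand of the gene with the motif in capitals.
HSPA5: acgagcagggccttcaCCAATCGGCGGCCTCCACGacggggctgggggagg
CANX: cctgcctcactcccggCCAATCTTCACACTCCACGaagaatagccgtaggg
CALR: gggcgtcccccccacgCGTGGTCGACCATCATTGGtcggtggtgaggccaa
PDIA6: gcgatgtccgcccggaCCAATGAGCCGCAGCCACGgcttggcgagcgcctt
XBP1: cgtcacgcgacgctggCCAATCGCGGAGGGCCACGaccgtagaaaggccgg
ALG12: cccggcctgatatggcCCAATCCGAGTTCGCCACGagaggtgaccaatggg
In CALR the motif is on the other strand and so reads from CGTGG to ATTGG. The motif begins 66 bases before the start in HSPA5 (chr9:125241375-125241425, minus strand), 151 in CANX (chr5:179698762-179698812, plus), 225 in CALR (chr19:12938368-12938418, plus), 86 in PDIA6 (chr2:10812837-10812887, minus), 52 in XBP1 (chr22:28800587-28800637, minus) and 134 in ALG12 (chr22:49918538-49918588, minus). A match of letters is no evidence of binding.

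The 6 genes did not move as a block. In input, HSPA5 and CANX rose, by 0.56 and 0.32, and CALR (0.18), PDIA6 (0.10), XBP1 (-0.01) and ALG12 (-0.02) were not called. Among TIAR RIP arrays HSPA5, CALR, PDIA6 and CANX rose, by 1.22, 0.48, 0.47 and 0.35, and ALG12 (0.13) and XBP1 (-0.06) were not called. Among G3BP1 RIP arrays XBP1, ALG12 and CALR rose, by 0.74, 0.57 and 0.29, and PDIA6 (0.35), HSPA5 (0.17) and CANX (0.09) were not called. Their levels and the calls that rest on single arrays are given with their roles.

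HSPA5, the main ER chaperone of the HSP70 family, had the widest spread of levels over the 6 groups among these chaperones. It read 12.13, 12.02 and 12.06 in unstressed and 12.54, 12.66 and 12.68 in stressed input. Its TIAR RIP values were 10.69, 10.43 and 10.57 without stress and 11.62, 11.71 and 12.02 with arsenite, and in the G3BP1 RIP 13.1, 13.08 and 12.79, then 13.19, 13.14 and 13.15. Every G3BP1 array was above every input array, and every TIAR array at or below the lowest input array. The treatments did not overlap in any of the 3 RNA samples, although in the G3BP1 RIP they lay close together.

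Arsenite raised HSPA5 by 1.22 ± 0.11 in the TIAR RIP (2.33-fold, adjusted p 7.6e-06) and by 0.56 ± 0.11 in input (1.47-fold, adjusted p 0.00345), while the G3BP1 RIP changed by 0.17 ± 0.11 (adjusted p 0.383). The TIAR change exceeded the G3BP1 change by 1.05 ± 0.15 (adjusted p 0.00044), and the input change by 0.66 ± 0.15, which was not called (adjusted p 0.0697) but was without the pair of arrays (0.62, adjusted p 0.0342). The G3BP1 change was below the input change. That was not called with all arrays, but was without the pair (-0.53, adjusted p 0.0193) and with median centring (-0.54, adjusted p 0.00954). Without stress HSPA5 was lower in the TIAR RIP than in input (log2 difference -1.51 ± 0.11) and higher in the G3BP1 RIP (0.92 ± 0.11). The RIPs differed by -2.42 ± 0.11 without stress (adjusted p 1e-10) and by -1.38 ± 0.11 with arsenite (adjusted p 6.2e-08).

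CALR read 12.49, 12.26 and 12.41 in the unstressed and 12.76, 12.88 and 12.96 in the stressed TIAR RIP, a rise of 0.48 ± 0.08 (adjusted p 0.00142) with no overlap. In input its treatments did not overlap either. The input change of 0.18 was not called, but was called with median centring (0.27, adjusted p 0.0246). Its rise in the G3BP1 RIP, 0.29 ± 0.08 (adjusted p 0.0319), was not called in 5 of the 18 fits that left out 1 array, nor without the pair of arrays (0.21, adjusted p 0.0671). The 5 were those without replicates 1, 2 or 3 of the stressed and 1 or 3 of the unstressed G3BP1 RIP, at 0.21 to 0.31. CANX rose by 0.32 ± 0.08 in input (adjusted p 0.0164) and by 0.35 ± 0.08 in the TIAR RIP (adjusted p 0.0102). Both CANX calls rested on single arrays: that in input was lost without replicate 2 or 3 of stressed or 1 or 2 of unstressed input (0.29 to 0.32, largest adjusted p 0.0664), and that in the TIAR RIP without replicate 1 of the stressed or 3 of the unstressed RIP (0.32, adjusted p 0.0519). CALR was lower in the TIAR RIP than in the G3BP1 RIP by log2 differences of -0.82 and -0.63 without and with arsenite, whereas CANX differed by -0.03 (adjusted p 0.795) and 0.23 (adjusted p 0.0343, lost in 4 of 18 fits without 1 array).

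**Figure D4:**
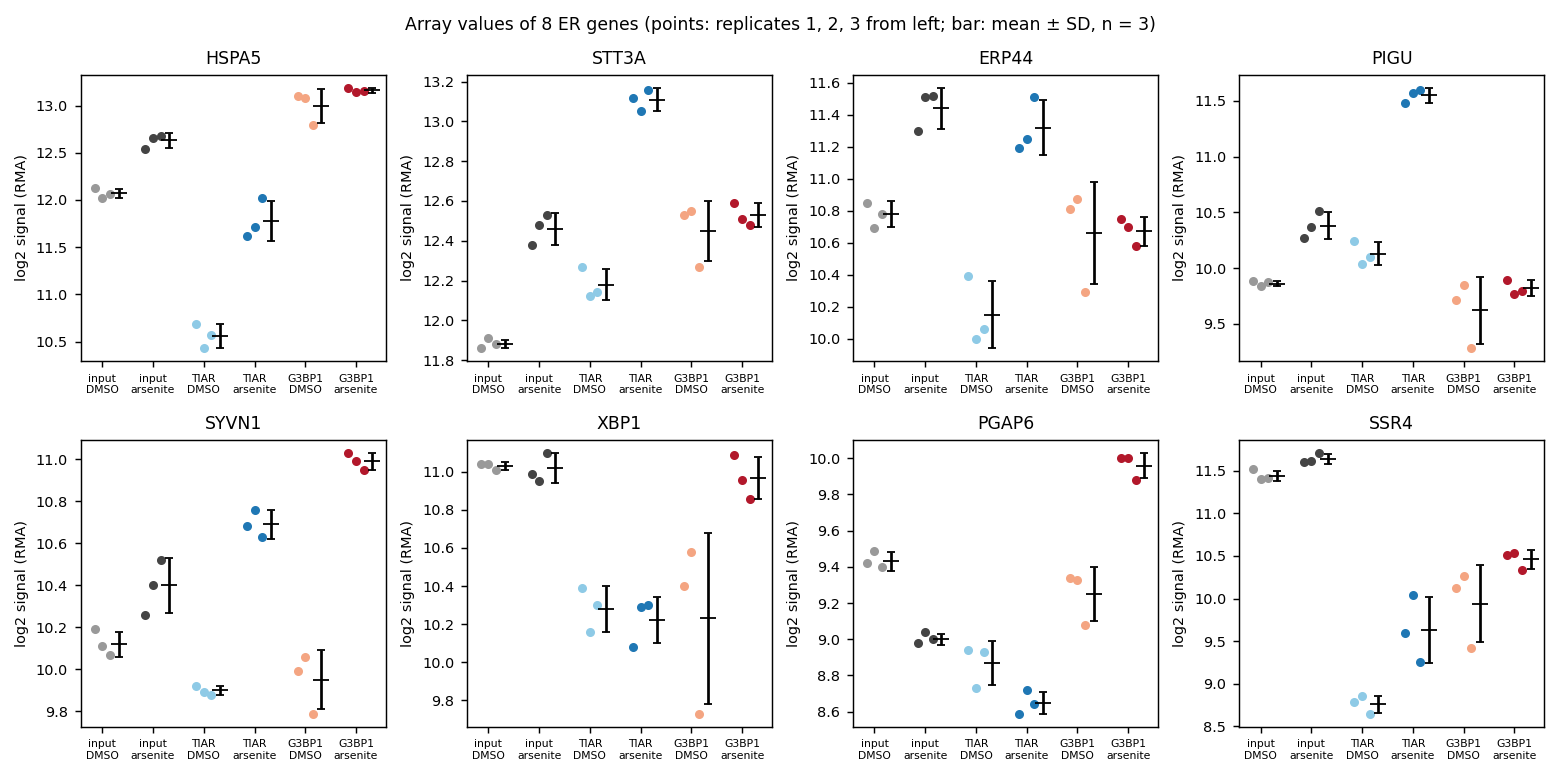
Log2 signal of 8 ER genes on each array in the 6 groups (points, replicates 1 to 3 from left), with the mean and SD of each group (bar, n = 3). HSPA5, STT3A, ERP44 and PIGU rise with arsenite in input and in the TIAR RIP, SYVN1 in all 3 RNA samples, and XBP1 and PGAP6 in the G3BP1 RIP; SSR4 is lowest in the TIAR RIP.

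Of 7 disulfide isomerases, 5 were lower in the TIAR RIP than in the G3BP1 RIP without stress and 0 higher, beside 30.2% and 19.2% of all genes, and the median difference was -1.27, beside -0.07. With arsenite 4 were lower and 1 higher, beside 32.4% and 14.4%, and the median was -1.25, beside -0.08. PDIA6 read 10.81, 10.6 and 10.51 in the unstressed TIAR RIP, 11.2, 11.18 and 11.2 in unstressed input and 12.06, 12.12 and 11.84 in the unstressed G3BP1 RIP. The 3 RNA samples did not overlap. PDIA4, PDIA5 and PDIA6 were higher in the G3BP1 RIP than in input by 0.87, 0.98 and 0.81 without stress, and by 0.50, 1.55 and 1.06 with arsenite. The call of PDIA4 with arsenite was lost with quantile normalization (0.25, adjusted p 0.0622). ERP29, an ER protein related to these enzymes that lacks their active site, was lower in the TIAR RIP than in input by log2 changes of -1.8 ± 0.16 and -1.85 ± 0.16, and below the G3BP1 RIP by -1.67 and -2.08.

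ERP44, which retains unassembled secretory proteins through mixed disulfides, followed HSPA5 and STT3A. It read 10.39, 10 and 10.06 in the unstressed and 11.19, 11.25 and 11.51 in the stressed TIAR RIP, and 10.85, 10.69 and 10.78, then 11.3, 11.51 and 11.52, in input. Its G3BP1 RIP values were 10.81, 10.87 and 10.29 without stress and 10.75, 10.7 and 10.58 with arsenite, where the treatments overlapped. The TIAR RIP rise was 1.17 ± 0.15 (2.25-fold, adjusted p 0.00011), the input rise 0.67 ± 0.15 (adjusted p 0.00675) and the G3BP1 change 0.01 ± 0.15 (adjusted p 0.979). PDIA4 rose in input by 0.63 ± 0.12 (adjusted p 0.00313), with 0.29 and 0.27 in the RIPs, not called. ERP29 rose in the G3BP1 RIP by 0.77 ± 0.16 (adjusted p 0.00382) and PDIA5, likewise, by 0.73 ± 0.21 (adjusted p 0.0307). Without replicate 3 of the unstressed G3BP1 RIP the change of PDIA5 was 0.44 (adjusted p 0.096), and its call was also lost without replicate 1 (0.66) or 2 (0.69) of the stressed G3BP1 RIP. PDIA6 rose in the TIAR RIP by 0.47 (adjusted p 0.0245), a call lost in 4 of the 18 fits without 1 array (0.40 to 0.57, largest adjusted p 0.11).

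Arsenite raised 3 of 9 ERAD genes in the G3BP1 RIP and 3 of 9 in the TIAR RIP, where 11.9% and 6.15% of all genes rose. The 9 include SEL1L3, which was placed in the group by its symbol alone. The median changes were 0.61 and 0.14. Leaving out the pair of arrays, the median in the G3BP1 RIP was 0.26 and 4 rose, beside 12.5% of all genes, and in the TIAR RIP 4 rose and 1 fell. With all arrays the risers in the TIAR RIP were SYVN1, SEL1L and DERL1, of which SEL1L (0.59) and DERL1 (0.45 to 0.53 over the fits) lost their calls in 14 and 12 of the 18 fits without 1 array. SYVN1 (HRD1), the ubiquitin ligase of ERAD, read 10.19, 10.11 and 10.07 in unstressed and 10.26, 10.4 and 10.52 in stressed input. Its values were 9.92, 9.89 and 9.88, then 10.68, 10.76 and 10.63 in the TIAR RIP, and in the G3BP1 RIP 9.99, 10.06 and 9.79, then 11.03, 10.99 and 10.95. In all 3 the arsenite arrays lay above the DMSO arrays. The rises were 1.04 ± 0.08 in the G3BP1 RIP (2.06-fold, adjusted p 3.1e-06), 0.80 ± 0.08 in the TIAR RIP (1.74-fold, adjusted p 2.3e-05) and 0.27 ± 0.08 in input (adjusted p 0.0415). The last was lost in 13 of the 18 fits without 1 array (0.21 to 0.34, largest adjusted p 0.14). The G3BP1 rise exceeded that in input by 0.77 ± 0.12 (adjusted p 0.00046), and by 0.63 without the pair of arrays. The TIAR rise exceeded that in input too. This was not called with all arrays, but was without the pair (0.46, adjusted p 0.017) and with median centring (0.41, adjusted p 0.0412).

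Without stress, the difference of SYVN1 from input in the TIAR RIP was -0.23 ± 0.08 (adjusted p 0.0412), lost in 11 of 18 fits without 1 array and under both rescalings (-0.06 and -0.12), and in the G3BP1 RIP -0.18 ± 0.08 (adjusted p 0.11). With arsenite the G3BP1 RIP stood 0.59 ± 0.08 above input (adjusted p 3.3e-05) and the TIAR RIP 0.30 ± 0.08 (adjusted p 0.00909). The latter was 0.14 with quantile normalization (adjusted p 0.202).

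XBP1 read 11.04, 11.04 and 11.01 in unstressed and 10.99, 10.95 and 11.1 in stressed input. In the TIAR RIP it read 10.39, 10.16 and 10.3, then 10.08, 10.29 and 10.3, and in the G3BP1 RIP 10.4, 10.58 and 9.73, then 11.09, 10.96 and 10.86. Both unstressed RIPs were below input, and with arsenite the G3BP1 arrays overlapped the input arrays while the TIAR arrays stayed below them. Its rise in the G3BP1 RIP was 0.74 ± 0.16 (1.67-fold, adjusted p 0.00543), and 0.48 without the pair of arrays (adjusted p 0.00261). The changes in input (-0.01 ± 0.16, adjusted p 0.974) and in the TIAR RIP (-0.06 ± 0.16, adjusted p 0.928) were not called. One value per gene cannot separate the spliced from the unspliced XBP1 mRNA.

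EDEM1, EDEM2 and EDEM3, which mark misfolded glycoproteins for ERAD, were all higher in the stressed G3BP1 RIP than in stressed input, by 1.20, 1.13 and 1.46. EDEM1 and EDEM3 were higher in the stressed TIAR RIP too, with means of 9.14 and 9.76 there and 8.16 and 8.45 in stressed input. Their lowest stressed input values, 7.6 and 7.66, were on the array that stood apart. In each stressed RIP 6 of the 9 ERAD genes were above input, beside 24.4% (TIAR) and 35.3% (G3BP1) of all genes. EDEM2 read 10.5, 10.36 and 9.66 in the unstressed and 11.03, 11.02 and 10.96 in the stressed G3BP1 RIP, a rise of 0.83 ± 0.15 (adjusted p 0.00194), or 0.57 without the pair of arrays (adjusted p 0.00015). In the stressed TIAR RIP it read 8.93, 8.94 and 8.88. This gave a difference of -2.09 ± 0.15 between the stressed RIPs (adjusted p 2.9e-08), the lower end of the range of the 70 genes in that comparison. EDEM3 rose by 1.09 ± 0.31 in the G3BP1 RIP (adjusted p 0.0282). Without replicate 3 of the unstressed G3BP1 RIP the change was 0.72 (adjusted p 0.101), and without replicates 1, 2 or 3 of the stressed G3BP1 RIP the call was lost too (1.08 to 1.12, adjusted p up to 0.0833).

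EDEM1 fell in input, from 9.08, 9.05 and 9.13 to 7.6, 8.47 and 8.42, with no overlap (-0.92 ± 0.28, adjusted p 0.0373). The lowest of these is the array that stood apart, and without it the change was -0.64 (adjusted p 0.16). The call was also lost without any 1 of the unstressed input arrays (adjusted p 0.0853 to 0.102) and without replicate 2 of the unstressed TIAR RIP (0.0501). In the G3BP1 RIP its change was 0.85 ± 0.28, not called (adjusted p 0.0521). SEL1L, the partner of SYVN1, was higher than input in both RIPs: by 1.04 and 1.58 in the TIAR RIP and by 0.86 and 1.09 in the G3BP1 RIP, without and with arsenite. DERL2, a membrane component of ERAD, was lower than input in the G3BP1 RIP, by log2 changes of -1.51 and -1.27, and 1.68 and 1.02 higher in the TIAR than in the G3BP1 RIP. Its unstressed G3BP1 arrays read 9.33, 9.51 and 8.23, the lowest being the array that stood apart.

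Changes of the GPI anchor assembly genes varied from gene to gene, also among subunits of a single enzyme. Of 18, 2 rose and 1 fell in input, 4 rose in the TIAR RIP and 6 rose in the G3BP1 RIP, where 2.08%, 6.15% and 11.9% of all genes rose. When the pair of arrays was left out, 6 rose and 1 fell in input, 9 rose and 2 fell in the TIAR RIP, and 6 rose in the G3BP1 RIP, beside 5.94%, 12.1% and 12.5% higher among all genes. The median in the G3BP1 RIP then went from 0.36 to 0.14. PIGU, a subunit of the transamidase that attaches the anchor, had the largest rise of the 70 genes in the TIAR RIP. It read 10.24, 10.04 and 10.1 there without stress and 11.48, 11.57 and 11.6 with arsenite. In input it read 9.88, 9.84 and 9.87, then 10.27, 10.37 and 10.51, and in the G3BP1 RIP 9.71, 9.85 and 9.28, then 9.89, 9.77 and 9.79. The stressed TIAR arrays were above all arrays of the other groups.

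PIGU rose by 1.42 ± 0.12 in the TIAR RIP (2.68-fold, adjusted p 4.7e-06), by 0.52 ± 0.12 in input (adjusted p 0.00841) and by 0.20 ± 0.12 in the G3BP1 RIP, where it was not called (adjusted p 0.326). Of the other transamidase subunits with a value, PIGS and PIGT had the larger rise in the G3BP1 RIP. PIGS rose by 0.42 in the TIAR RIP and 0.78 in the G3BP1 RIP, and PIGT by 0.34 and 0.67. PIGK, like PIGU, had the larger change in the TIAR RIP, where its treatments did not overlap. It was not called in either RIP (0.85, adjusted p 0.0661, and 0.28).

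PIGO, which adds ethanolamine phosphate to the third mannose of the anchor, rose in all 3 RNA samples with little spread. It went from 9.13, 9.19 and 9.05 to 9.83, 9.89 and 9.98 in input, from 9.21, 9.19 and 9.25 to 10.43, 10.38 and 10.42 in the TIAR RIP, and from 10, 10.01 and 10.1 to 10.7, 10.8 and 10.58 in the G3BP1 RIP. The groups did not overlap within any of the 3. The rises were 0.78 ± 0.07, 1.19 ± 0.07 and 0.65 ± 0.07 (adjusted p 1.5e-05, 3.9e-07 and 3.5e-05). PIGW, the inositol acyltransferase, fell in input (-0.69 ± 0.19, adjusted p 0.0209). Its change was -0.5 (adjusted p 0.0946) without the input array that stood apart, and -0.67 without replicate 1 or 3 of unstressed input, with adjusted p of 0.0735 and 0.0704.

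PIGN, the ethanolamine phosphate transferase for the first mannose, rose by 1.01 ± 0.24 in the G3BP1 RIP (adjusted p 0.00941), or 0.69 without the pair of arrays (adjusted p 0.00489). In the TIAR RIP it was above input by 1.08 and 1.85 without and with arsenite. PIGA, the catalytic subunit of the first step, was above input there by 1.41 and 1.46. PIGP, a subunit of the same enzyme, was below input in the unstressed G3BP1 RIP (-1.59 ± 0.29, adjusted p 0.00042, and -1.14 without the pair of arrays).

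GPI remodelling genes rose with arsenite in the G3BP1 RIP, 5 of 5, where 11.9% of all genes rose. In the TIAR RIP 0 of 5 were called, with changes from -0.22 to 1.12, where 6.15% of all genes rose. The change of 1.12 was that of PGAP1, near its 1.27 in the G3BP1 RIP, and its TIAR arrays did not overlap by treatment. With the pair that stood apart left out, 4 of 5 rose in the G3BP1 RIP, and 1 rose and 1 fell in the TIAR RIP. The shares of all genes without the pair are those given above. In input 0 rose and 2 fell, where 13.5% of all genes fell. PGAP6, which sheds GPI-anchored proteins, read 9.34, 9.33 and 9.08 in the unstressed and 10, 10 and 9.88 in the stressed G3BP1 RIP. It read 9.42, 9.49 and 9.4, then 8.98, 9.04 and 9 in input, and 8.94, 8.73 and 8.93, then 8.59, 8.72 and 8.64 in the TIAR RIP. The arsenite arrays were all higher in the G3BP1 RIP and all lower in input and in the TIAR RIP.

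PGAP6 thus rose in the G3BP1 RIP, by 0.71 ± 0.08 (adjusted p 5.9e-05), against a fall in input, with a log2 change of -0.43 ± 0.08 (adjusted p 0.00315). The TIAR RIP changed by -0.22 ± 0.08, not called (adjusted p 0.126). PGAP2, a fatty acid remodelling factor, rose by 0.68 ± 0.08 in the G3BP1 RIP (adjusted p 5.6e-05) and fell in input (-0.37 ± 0.08, adjusted p 0.00616). Both falls in input were not called with quantile normalization (-0.23, adjusted p 0.149, and -0.18, adjusted p 0.337). PGAP1, the inositol deacylase, rose by 1.27 ± 0.38 in the G3BP1 RIP (adjusted p 0.0379), from 6.97, 7.07 and 5.46 to 7.91, 7.7 and 7.69. Without replicate 3, the lowest of the unstressed arrays, its change was 0.75 (adjusted p 0.128), and 6 of the 18 fits without 1 array lost the call. The others were those without any 1 of the stressed G3BP1 arrays (1.19 to 1.31) and without replicate 2 or 3 of unstressed input (1.27). PGAP3 and PGAP4 rose by 0.28 and 0.45. Both calls were lost under the rescalings (PGAP3 0.22 and 0.19, PGAP4 0.39 and 0.38), and that of PGAP4 in 8 of 18 fits without 1 array (largest adjusted p 0.152) and without the pair of arrays (0.37, adjusted p 0.0656).

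PGAP1 was also the ER gene furthest above input in the TIAR RIP, by 1.56 ± 0.38 without stress (adjusted p 0.00379) and 2.69 ± 0.38 with arsenite (6.45-fold, adjusted p 3.7e-05). It read 5.96, 7.24 and 6.98 in stressed input and 9.71, 8.93 and 9.6 in the stressed TIAR RIP, and without the pair of arrays the difference was 2.31.

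The arsenite changes themselves were compared between RNA samples. Only 2 of the 70 rose more in the TIAR RIP than in input, and 0 rose less, beside 0.562% of all genes higher and 0.0422% lower. At an unadjusted limma p under 0.05, 15 rose more and 0 less, which was not counted over all genes. Differences above 0 numbered 60 of the 70, beside 8640 of the 14232 genes. The 2 called genes were PIGU (0.91 ± 0.17, adjusted p 0.0312) and PIGS (0.43 ± 0.09, adjusted p 0.0441). Of the 18 fits without 1 array, 10 lost the first call and 17 the second, with changes of 0.85 to 0.97 and 0.39 to 0.46, and without the pair of arrays 8 genes rose more, beside 2.99% of all genes. In the G3BP1 RIP 16 rose more than in input and 2 less, beside 17% and 2.24% of all genes, so the share of the ER genes was near that of all genes. Without the pair of arrays the counts were 15 and 9, beside 15.6% and 9.88%, and the median was 0.03 in place of 0.25. With median centring they were 16 and 6, beside 15.6% and 6.34%, and with quantile normalization 15 and 4, beside 14% and 7.64%. Among the 16 were PGAP6 (1.14 ± 0.12, adjusted p 2.8e-05) and PGAP2 (1.06 ± 0.11, adjusted p 3.5e-05), which kept their calls in all 18 fits without 1 array.

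Between the RIPs, 6 rose more in the TIAR RIP and 11 more in the G3BP1 RIP, beside 4.6% and 10.2% of all genes. PIGU (1.22 ± 0.17), ERP44 (1.16 ± 0.21), HSPA5 (1.05 ± 0.15), STT3A (0.86 ± 0.12) and PIGO (0.54 ± 0.10) rose more in the TIAR RIP, with adjusted p of 0.00024, 0.00166, 0.00044, 0.00022 and 0.00249. These calls held in all 18 fits without 1 array. That of PIGO was lost with quantile normalization (0.46, adjusted p 0.131). PGAP6 rose more in the G3BP1 RIP (-0.93 ± 0.12, adjusted p 0.00015), as did XBP1 (-0.8 ± 0.23, adjusted p 0.0282), whose call was lost in 5 of the 18 fits (-0.97 to -0.55). Leaving out replicate 1 or 2 of the stressed G3BP1 RIP gave 9 genes in all, replicate 1 of the stressed TIAR RIP 10, and replicate 1 or 3 of the unstressed TIAR RIP 11. In these fits 3.29% to 4.14% of all genes rose more in the TIAR RIP and 7.23% to 8.77% more in the G3BP1 RIP. Leaving out the pair of arrays gave 19 and 13, beside 14.1% and 13.3% of all genes.

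Related genes outside the symbol families were counted the same way: signal recognition particle and receptor, other glycosylation and trimming enzymes, other folding and ERAD factors and unfolded protein response signalling, 68 of 84 listed with a value. In input 6 rose and 6 fell, beside 2.08% and 13.5% of all genes. The TIAR RIP had 16 that rose and 2 that fell, beside 6.15% and 7.15%, and the G3BP1 RIP 28 and 1, beside 11.9% and 4.12%. GANAB and PRKCSH, the subunits of glucosidase II, which trims the glycan that oligosaccharyltransferase adds, rose in input by 0.94 and 0.69 and in the TIAR RIP by 1.14 and 1.03. DPAGT1, which starts the dolichol-linked glycan, rose by 0.76 and 0.85. Of 12 unfolded protein response signalling genes, 8 rose in the G3BP1 RIP and 2 in the TIAR RIP, where 1 fell, and 1 rose and 3 fell in input. OS9, the ERAD lectin, gained 1.10 ± 0.11 in the TIAR RIP (adjusted p 1.2e-05) from a level far below the G3BP1 RIP, where the log2 difference between the unstressed RIPs was -3.14 ± 0.11 (adjusted p 6.9e-12).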

How the data were processed

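The deposited table holds 1 log2 signal per transcript cluster and array, which the authors made with RMA in Affymetrix Expression Console, per the submitters' processing notes. No source used here states the software version or whether the 18 arrays were normalized together. Values run from 1.64 to 14.53. The number of arrays limits the precision.

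Genes were named from the platform table: 14432 clusters have 1 gene symbol, 2408 several and 5171 none. All 22011 clusters entered a linear model of the 6 groups (limma 3.58.1 under R 4.3.3, lmFit then eBayes; 12 residual and 2.61 prior degrees of freedom). In each of 12 comparisons the two-sided p-values were corrected for all clusters (Benjamini-Hochberg), and the script was tested on simulated data. No array was left out.

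The ER genes, their roles, the related genes and the markers were chosen with earlier results of these data known. Always named were HSPA5, CANX, CALR, SYVN1 and XBP1, then up to 10 called genes per direction by size in each arsenite comparison and 5 in the others, and up to 4 related genes by p. Other genes, named to complete a complex or a promoter set, were chosen after their values were seen. RefSeq promoter windows (GRCh38.p14) were searched for motifs on both strands. Alternatives were a replicate block, an intensity trend with a robust prior, leaving out the lowest 25% of clusters, median centring, quantile normalization, the mean of a gene's clusters, and leaving out each array or the pair that stood apart.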

Additional observations from a re-analysis of the deposited data

Results flagged for a closer look

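The results in this part are genes whose arsenite change differed between RNA samples by an interaction contrast in limma (adjusted p under 0.05). In the TIAR RIP the change exceeded that in input for PIGU (0.91, log2) and PIGS (0.43), and both calls rested on single arrays. Both were also lost with the replicate block (adjusted p 0.0668 and 0.0841). That of PIGS was lost with median centring (0.32, adjusted p 0.0918) and quantile normalization (0.31, adjusted p 0.123) too. In the G3BP1 RIP the change exceeded that in input for EDEM1 (1.78), SEL1L3 (1.39), PIGN (1.17), PGAP6 (1.14), PGAP2 (1.06), SYVN1 (0.77) and XBP1 (0.75), and was below it for ERP44 (-0.66) and STT3A (-0.51). Without the pair of arrays that stood apart, EDEM1 was 1.1, SEL1L3 0.74, PIGN 0.64, SYVN1 0.63 and XBP1 0.48, each still called. Leaving out 1 array at a time, ERP44 lost its call in 12 of 18 fits (adjusted p up to 0.0916), XBP1 in 7 (up to 0.0857) and PIGN in 4 (up to 0.0694).

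The TIAR change exceeded the G3BP1 change for PIGU (1.22), ERP44 (1.16), HSPA5 (1.05), STT3A (0.86) and PIGO (0.54). It was below the G3BP1 change for EDEM1 (-1.26), PGAP6 (-0.93), PIGW (-0.84), XBP1 (-0.8) and EDEM2 (-0.79). Of these, EDEM1 lost its call in 11, PIGW in 13, XBP1 in 5 and EDEM2 in 4 of the 18 fits that left out 1 array. Groups of 3 arrays are too small for the check on single extreme samples.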

How the results depend on the processing

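Counts of called ER genes moved most in input and in the differences of arsenite changes. In input, 13 became 23 with median centring, 23 with quantile normalization and 25 without the pair of arrays that stood apart. Without that pair, the TIAR RIP count of arsenite changes went from 22 to 36, the TIAR change beyond input from 2 to 8 and the difference of TIAR and G3BP1 changes from 17 to 32. Calls also grew in number among all genes. In input 2.08% of all genes were higher and 13.5% lower in the main fit. These shares were 5.07% and 13.4% with median centring and 6.4% and 12.1% with quantile normalization. Without the pair the shares of all genes were larger too, as given above. The TIAR change beyond input had 0 calls with a replicate block and 4 without the lowest 25% of transcript clusters. Leaving out 1 array at a time gave 8 to 19 genes in input, 16 to 32 in the TIAR RIP and 17 to 29 in the G3BP1 RIP. The lowest counts came without replicate 1 of unstressed input, 3 of the unstressed TIAR RIP and 1 of the stressed G3BP1 RIP. In those fits 1.17%, 3.97% and 7.71% of all genes rose and 8.69%, 5.62% and 2.99% fell. Against input the ranges were 30 to 45 and 42 to 52 for the TIAR RIP without and with arsenite, and 28 to 38 and 29 to 41 for the G3BP1 RIP. Between the RIPs they were 43 to 47 and 45 to 51, for changes beyond input 0 to 9 (TIAR) and 14 to 20 (G3BP1), and for the TIAR against the G3BP1 change 9 to 24. The direction turned for ALG13 in the stressed TIAR RIP against input (0.42 with the mean of its clusters) and for CANX between the unstressed RIPs (0.17 with quantile normalization, where the main value of -0.03 was not called). The cause was not tested. Of 159 values of single named genes, 146 kept their direction and their side of the threshold with the replicate block, 151 with median centring, 148 with quantile normalization and 153 without the pair of arrays. No pairing by replicate number was seen in the values. The deviations of arrays with the same number had a mean correlation of -0.0146 (-0.405 to 0.416), and 4 of 18 arrays matched their own number best. This cannot show whether arrays with the same number came from the same culture. With the replicate block the 3 arsenite comparisons had 11, 20 and 22 calls, and beyond the 0 above no count moved by over 1.5 times, while ERP44 lost its call for the G3BP1 change beyond input (adjusted p 0.0613).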
